A study of Drosophila melanogaster with 8 samples.

Results

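The genes described here encode glutathione transferases (symbols GstD, GstE, GstO, GstT and GstZ) and UDP-glycosyltransferases (symbols Ugt followed by a number), the conjugating enzymes of detoxification in Drosophila melanogaster. They were chosen by the gene symbol in the array platform's annotation, which gave 35 members of 6793 named genes: 23 Gst genes and 12 Ugt genes. RNA came from pooled heads of unmated Oregon-R wild type males, 3 to 4 days old at the start, which had been fed for 7 days on food with 8 mg/ml pentylenetetrazole (PTZ), a GABA-A receptor blocker that causes convulsions, and for the next 3 days on food with 16 mg/ml of the anticonvulsant drug gabapentin (GBP). The day 14 group then had 4 days on normal food before its heads were collected, while the day 10 group was collected when gabapentin feeding ended. Controls of the same strain, sex and age stayed on normal food throughout. For day 14 replicates 1, 2 and 3 the labels give the abbreviation ETH, which they do not explain, for the 3 days of the second drug in 1 place and gabapentin in others. Each group held 4 spotted cDNA arrays with 2 colours, and each array carried treated and parallel control RNA of 1 biological replicate, with treated RNA in Cy5 on replicates 1 and 2 and in Cy3 on replicates 3 and 4.

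Glutathione transferases join the tripeptide glutathione to electrophilic compounds and to products of lipid peroxidation. The delta (GstD) and epsilon (GstE) classes are the expanded classes of insects and include enzymes of insecticide resistance, while the omega, theta and zeta classes also occur in mammals. Ugt enzymes sit in the endoplasmic reticulum membrane and add a sugar to small lipophilic molecules, and insects mostly use UDP-glucose where mammals use UDP-glucuronic acid. Both families can act after the oxidation of a compound by cytochrome P450 enzymes, though not only then. In flies the stress-responsive transcription factor cnc with its repressor Keap1 controls several Gst genes, GstD1 among them.

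A value here is the log2 ratio of treated over control RNA on 1 array, taken relative to the median of the surrounding array features (each array was divided into 48 equal runs of consecutive features). This step was made because the deposited ratios were not centred and drifted along the table: day 14 array medians lay between -0.48 and 0.29, day 10 array medians between -0.83 and 0.079, and the 48 run medians of an array spanned 0.41 to 0.73 log2 units at day 14 and 0.84 to 1.81 at day 10. The direction of the deposited ratios is not settled, because the labels give the dyes but neither the numerator nor whether swapped arrays had already been turned. Each ratio was taken as Cy5 over Cy3, with swapped arrays turned, so that a negative value stands for less RNA in treated heads. All directions below hold for that reading only, and values without turning are given beside the genes on which the account rests. Over all genes and features tested, the Cy5 arrays and the Cy3 arrays had the same sign after turning in 55.2% at day 14 and in 39.7% at day 10. Among the members this held for 7 of 11 at day 14 and 10 of 26 at day 10, and the other 4 and 16 had the same sign without turning.

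The authors' spot filter left many blanks. A member was tested on a day when it had values on at least 3 of the 4 arrays, which 11 of the 35 members met at day 14 (9 Gst and 2 Ugt) and 26 at day 10 (19 Gst and 7 Ugt). Of the 10 GstD genes, 2 were tested at day 14 and 8 at day 10. Of the 7 GstE genes, 4 were tested at day 14 and 6 at day 10. Only GstD1, GstD4, GstE12 and GstT4 had a value on all 8 arrays, and 8 members had none at day 14. The members that were tested are those whose spots passed the authors' filter on enough arrays, and they do not stand for all 35.

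No member passed limma's moderated test with Benjamini-Hochberg adjustment on either day, which was also true of all genes and features (0% of 6142 at day 14 and 0% of 11312 at day 10). At an unadjusted p under 0.05, 1 of 11 members was lower at day 14, against 2.13% of everything tested, and none was higher, against 1.55% (3.68% in either direction). At day 10, 2 of 26 members were lower, against 3.47% of everything tested, and none was higher, against 2% (5.46% in either direction). Means below 0 were seen for 8 of 11 members at day 14, against 48.7% of all genes and features tested, and for 3 of 11 without turning, against 49.3%. At day 10 they were seen for 16 of 26 members, against 47.1%, and for 17 of 26 without turning, against 48.4%. The adjusted p-values of the members lay between 0.990 and 0.999 at day 14 and between 0.858 and 0.988 at day 10.

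**Figure D1:**
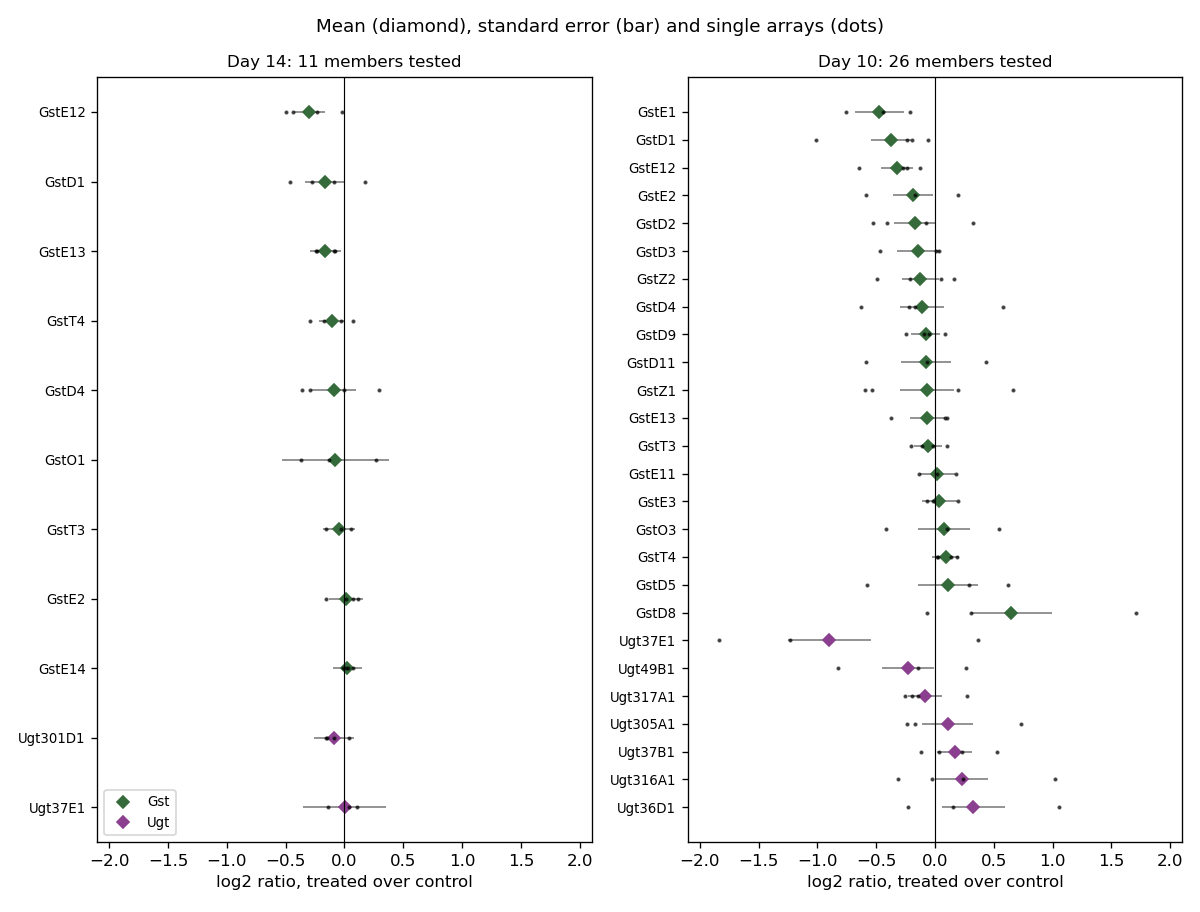
Mean log2 ratio of treated over control (diamonds) with its standard error from limma (bars) for each member tested at day 14 (left) and day 10 (right), with single arrays as dots. GstE12 has the lowest mean at day 14 (-0.30), and at day 10 the means lie between -0.90 (Ugt37E1) and 0.65 (GstD8); without turning GstE12 stood at 0.17 at day 14.

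GstE12, an epsilon-class gene that lies apart from the run of neighbouring GstE1 to GstE10 genes in RefSeq's annotation, was below 0 on all 8 arrays. It had log2 ratios of -0.02, -0.23, -0.44 and -0.50 on day 14 replicates 1 to 4, and of -0.24, -0.12, -0.27 and -0.64 on day 10 replicates 1 to 4. The values nearest 0 were on arrays with treated RNA in Cy5 on both days, and the values farthest from 0 on arrays with treated RNA in Cy3. Its mean was -0.30 ± 0.13 (SE, n = 4; limma unadjusted p = 0.0496, adjusted p = 0.990) at day 14 and -0.32 ± 0.13 (SE, n = 4; limma unadjusted p = 0.0375, adjusted p = 0.866) at day 10, a level 0.813 and 0.801 times that of the controls. Its 95% interval was -0.60 to -0.00063 for day 14 and -0.62 to -0.023 for day 10. Arrays with treated RNA in Cy5 averaged -0.13 at day 14 and -0.18 at day 10, and arrays with treated RNA in Cy3 averaged -0.47 and -0.46. These were the smallest unadjusted p of any member at day 14 and of any Gst member at day 10, and neither survived the adjustment.

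GstE12 was printed as 1 pair of spots, and the spots agreed on most arrays, with a median difference of 0.089 log2 units over 8 arrays. The largest difference, 0.69, was on day 14 replicate 4, where the spots stood at -0.16 and -0.85. On day 14 replicate 1 they stood on either side of 0, at -0.072 and 0.032. Of the 2217 genes and features with values on all 8 arrays, 28 (1.26%) were below 0 on every one, and GstE12 was the only 1 of the 4 members that was. With each array centred on its own median it was again below 0 on all 8 arrays, against 1.76% of these genes and features, and on 7 of 8 with runs of 24 features also centred, where day 14 replicate 1 stood at 0.36 and 0.902% of them were below 0 on all 8. With the deposited values turned but not centred it was below 0 on 7 of 8, and 2.75% of these genes and features were on all 8. Without turning the swapped arrays its means were 0.17 at day 14 and 0.14 at day 10, and the arrays split 4 to 4 by sign, where 0.812% of these genes and features were below 0 on all 8. Centring of runs of 24 features moved the day 14 mean to -0.12.

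**Figure D2:**
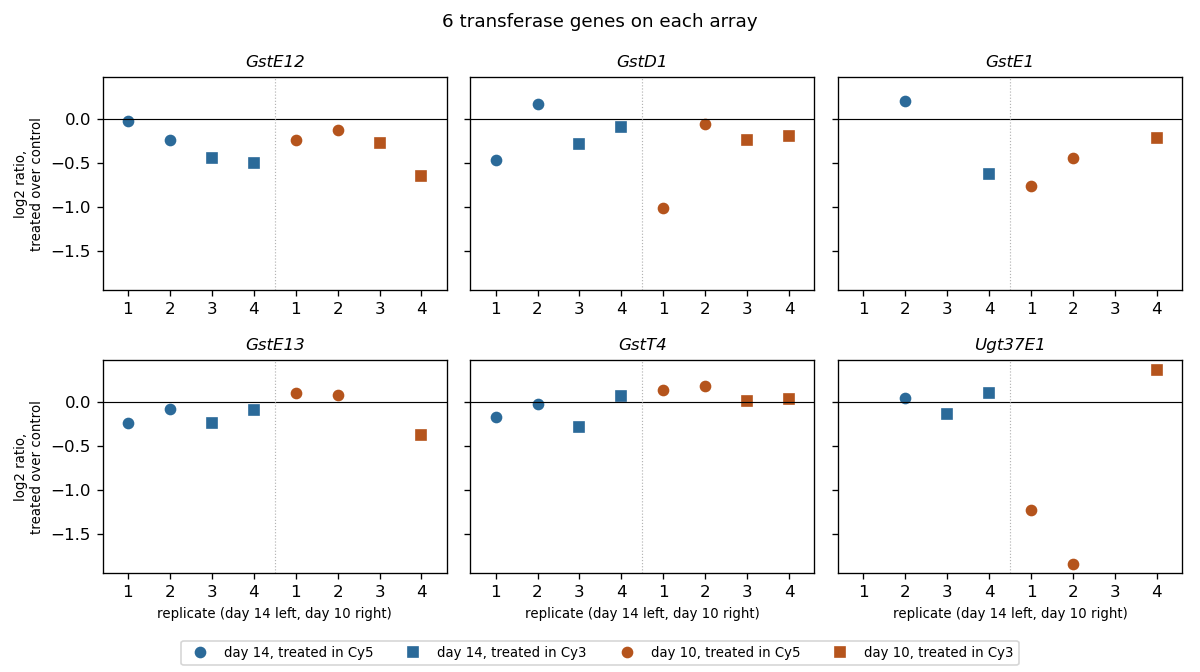
Log2 ratio of treated over control on each array for 6 transferase genes, with day 14 replicates on the left and day 10 replicates on the right of each panel and the dye of the treated RNA given by the marker. GstE12 lies below 0 on all 8 arrays (4 of 8 without turning) and GstD1, with its spots averaged, on 7 of 8 (3 of 8). Ugt37E1 is far below 0 on the 2 day 10 arrays with treated RNA in Cy5 and above 0 on day 10 replicate 4.

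GstD1, the best known delta-class gene, whose enzyme acts on the insecticide DDT, was below 0 on 7 of 8 arrays with its spots averaged. Of the genes and features with 8 values, 5.95% were below 0 on at least 7. Its log2 ratios were -0.46, 0.17, -0.28 and -0.09 on day 14 replicates 1 to 4, and -1.01, -0.059, -0.24 and -0.19 on day 10 replicates 1 to 4. The day 10 mean of -0.37 ± 0.17 (SE, n = 4; limma adjusted p = 0.904) rested in good part on replicate 1 and was -0.16 without it. It was -0.69 with the deposited values turned but not centred and -0.22 with runs of 24 features also centred. At day 14 the mean was -0.17 ± 0.17 (SE, n = 4; limma adjusted p = 0.990), and it was -0.066 without replicate 1 and -0.28 without replicate 2. Without turning, the means were 0.019 at day 14 and -0.16 at day 10. GstD1 was spotted from 2 clones (pairs of spots under 1 symbol), and on day 10 replicate 2 they stood on either side of 0, at -0.44 and 0.32. On day 10 replicate 1 they stood at -1.52 and -0.50, so the value of -1.01 there is the mean of clones that lay 1.02 log2 units apart. The first clone had values only on day 10 replicates 1, 2 and 4, at -1.52, -0.44 and -0.29. The second had values on all 8 arrays and was above 0 on replicate 2 of both days, at 0.17 at day 14 and 0.32 at day 10. The count of 7 and the day 10 mean thus drew on a clone that was missing elsewhere.

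GstE1, also spotted from 2 clones, had the lowest Gst mean at day 10, with -0.76 on replicate 1, -0.45 on replicate 2 and -0.21 on replicate 4, and no value on replicate 3. The mean of -0.47 ± 0.21 (SE, n = 3; limma adjusted p = 0.904) was below 0 on every measured array, and it was -0.33 without replicate 1. Its clones agreed closely: on the 4 arrays where both had a value they had the same sign each time, and they differed by 0.022 log2 units at the median and 0.14 at most. At day 14 GstE1 had only 2 values, 0.20 on replicate 2 and -0.63 on replicate 4, and was not tested. Centring of runs of 24 features moved the day 10 mean to -0.23, and without turning it was -0.33, above GstD5 at -0.50 and GstD11 at -0.36, so the rank depended on turning.

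Of the other GstE genes, GstE13 was below 0 on all 4 day 14 arrays, at -0.24, -0.084, -0.24 and -0.09 on replicates 1 to 4, with a mean of -0.16 ± 0.13 (SE, n = 4; limma adjusted p = 0.990), which was -0.00037 without turning. Values below 0 on every measured array were seen for 2 of 11 members at day 14, GstE12 and GstE13, against 12.2% of everything tested. At day 10 GstE13 stood at 0.10, 0.082 and -0.38 on replicates 1, 2 and 4, so its arrays lay on both sides of 0, and its day 10 mean of -0.065 was 0.091 without replicate 4. GstE2 had a mean of 0.013 at day 14 (-0.15, 0.074, 0.11 and 0.017 on replicates 1 to 4) and of -0.19 at day 10 (-0.58, -0.17 and 0.20 on replicates 1, 3 and 4). GstE14, whose enzyme takes part in ecdysteroid synthesis in flies, was tested at day 14 alone and had the narrowest spread of the members there, a mean of 0.025 with an SD of 0.036 (n = 4). GstE11 and GstE3 had day 10 means of 0.021 and 0.038.

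Values below 0 on every measured array were seen at day 10 for 3 of 26 members, GstE12, GstD1 and GstE1, against 7.54% of everything tested, and values above 0 on every array for 1, GstT4, against 7.26%. GstT4, a theta-class gene, had log2 ratios of -0.18, -0.028, -0.29 and 0.069 on day 14 replicates 1 to 4, and of 0.14, 0.18, 0.014 and 0.029 on day 10 replicates 1 to 4. Its day 14 mean was -0.11 ± 0.11 and its day 10 mean 0.091 ± 0.11 (SE, n = 4 each), and the day 10 mean was -0.21 with the deposited values turned but not centred and -0.0021 with runs of 24 features centred. GstT3, the other theta-class gene tested, had means of -0.043 at day 14 and -0.058 at day 10.

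The remaining GstD genes lay on both sides of 0. At day 10 the 8 tested had a median of -0.094, 6 of them below 0, and ran from GstD1 at -0.37 to GstD8 at 0.65. The GstD8 mean, the highest of all members, rested on replicate 2 at 1.71, with -0.065 on replicate 1 and 0.30 on replicate 4 (SE 0.34, n = 3; limma adjusted p = 0.904), and without turning it was 0.45, again the highest. GstD4, the only delta gene besides GstD1 tested on both days, had means of -0.093 at day 14 and -0.11 at day 10. Its arrays lay between -0.36 and 0.29 at day 14 and between -0.62 and 0.58 at day 10. On day 10 replicate 1 its 2 clones stood 1.80 log2 units apart, at 0.27 and -1.52. The second clone had values only at day 10, on replicates 1, 3 and 4, at -1.52, 0.58 and -0.31. The first, which alone gave the day 14 values, stood at 0.27, -0.22 and -0.038 on day 10 replicates 1, 2 and 4. GstD6 and GstD10 had a value on 1 array each. The GstD genes are neighbours and close relatives, and spotted cDNA can bind the transcript of a relative, so single GstD values may hold signal of several genes, and the amount was not tested.

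The zeta and omega classes were sparsely measured. GstZ1, whose class carries out a step of tyrosine breakdown, was measured only at day 10, at 0.67, -0.54, 0.20 and -0.59 on replicates 1 to 4, values that lay on both sides of 0 in each dye orientation. GstZ2 had a day 10 mean of -0.12 ± 0.16 (SE, n = 4). GstO1, an omega-class gene, had -0.37, 0.27 and -0.13 on day 14 replicates 1 to 3 and a mean of -0.078 ± 0.45 (SE, n = 3). On day 10 it had 2 values, -2.38 on replicate 1 and 0.37 on replicate 4, and was not tested. The spots behind the lower one had deposited ratios of -4.64 and -2.47.

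Among the Ugt genes, Ugt37E1 had the lowest mean and the smallest unadjusted p of all members at day 10. It stood at -1.23 on replicate 1, -1.83 on replicate 2 and 0.36 on replicate 4, a mean of -0.90 ± 0.35 (SE, n = 3; limma unadjusted p = 0.0337, adjusted p = 0.858). Both arrays with treated RNA in Cy5 were low and the array with treated RNA in Cy3 was not, and the mean was -1.53 without replicate 4, -0.73 without replicate 1 and -0.43 without replicate 2. The deposited ratios on these arrays were -1.59, -1.81 and -0.09, and the spots of the last stood at -0.86 and 0.68. At day 14 Ugt37E1 stood at 0.039, -0.14 and 0.11 on replicates 2 to 4, with a mean of 0.0022 ± 0.35 (SE, n = 3). Runs of 24 features moved the day 10 mean to -0.40, a setting that can pull values towards 0 by construction. Without turning it was -1.14 (limma unadjusted p = 0.00167, adjusted p = 0.174), again the lowest of all members.

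The other Ugt genes tested at day 10 lay on both sides of 0. Ugt36D1 stood at 0.15, -0.23 and 1.06 on replicates 1 to 3, a mean of 0.32 ± 0.27 (SE, n = 3), which was -0.041 without replicate 3 and -0.38 without turning. A dye term gave 0.51. A block for replicate number gave 1.06, which is only its value on replicate 3, because that fit left no spread among its 3 values to test. Ugt316A1 had 0.23 ± 0.22 and Ugt37B1 0.17 ± 0.15 (SE, n = 4 each), and Ugt305A1 had 0.11. Ugt49B1 and Ugt317A1 had -0.23 and -0.083. At day 14 Ugt301D1 was the only other Ugt gene tested, at -0.091 ± 0.17 (SE, n = 4). Ugt37A1 was measured on 2 arrays, both at day 10, at -2.35 on replicate 1 and 1.14 on replicate 4, whose deposited ratios, -3.25 and -1.46, had the same sign. Ugt35A1 had 1 value, -1.49 on day 10 replicate 1. That array had the widest spread over all genes (SD 0.67 log2 units, against 0.39 to 0.45 on the other day 10 arrays), and its lowest member values, GstO1, Ugt37A1 and Ugt35A1, all came from genes with too few arrays to test.

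Set side by side, the Gst median was -0.093 and the Ugt median -0.044 at day 14 (9 and 2 genes), and the Gst median was -0.074 and the Ugt median 0.11 at day 10 (19 and 7 genes), beside medians of 0.0055 and 0.014 over all genes and features tested. The gap of Gst minus Ugt was -0.048 at day 14 and -0.18 at day 10, and it was not tested. On single arrays, over the members with a value there, the Gst median was above the Ugt median on 1 of 4 arrays at day 14 and 2 of 4 at day 10. These array gaps had an SD of 0.20 and 0.21 (n = 4 each), which is the spread of single arrays and not the error of the day gap. Over members with a value on each array, the Gst median was -0.16, 0.12, -0.13 and -0.089 on day 14 replicates 1 to 4 and -0.19, -0.059, -0.002 and 0.018 on day 10 replicates 1 to 4. The Ugt median was -0.093 (1 gene), -0.15, 0.011 and 0.082 on the day 14 replicates and -0.29, -0.14, 0.24 and 0.32 on the day 10 replicates. The Ugt median was thus below 0 on the 4 arrays with treated RNA in Cy5 and above 0 on the 4 arrays with treated RNA in Cy3, and without turning the Ugt median of the tested genes was -0.0034 at day 14 and -0.38 at day 10. The part of the dye in this was not tested. The Gst median had both signs in each dye orientation, and without turning the median of the tested Gst genes was 0.009 at day 14 and -0.071 at day 10. Without turning the gap was 0.012 at day 14 and 0.31 at day 10. It also depended on single arrays: without day 14 replicate 4 it was 0.013 at day 14, and without day 10 replicate 1 it was -0.082 at day 10.

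**Figure D3:**
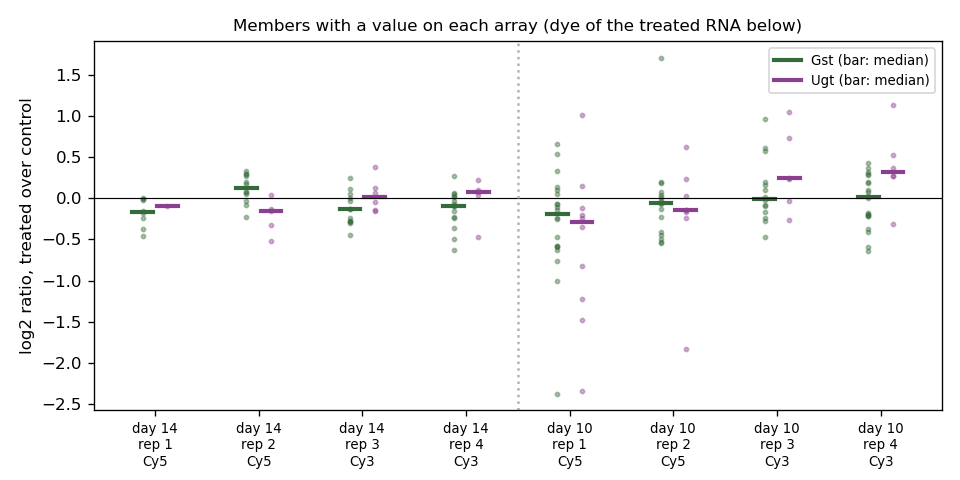
Log2 ratio of treated over control for each member with a value on each array (points) and the family median (bars), Gst left and Ugt right of each pair, with the dye of the treated RNA under each array. The Ugt medians lie below 0 on the Cy5 arrays and above 0 on the Cy3 arrays of both days, from -0.29 to 0.32.

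Paired spots gave a measure of how well each member was read. Members were printed as 40 pairs of spots, 5 genes having 2 pairs, and of the 176 pair values on single arrays none had 1 spot blank. Paired spots of members differed by 0.19 log2 units at the median, against 0.179 for all named pairs. For the 22 member pairs with values on 5 or more arrays, the median difference of a pair was 0.15 (range 0.072 to 0.42), and for the 18 pairs with values on 1 to 4 arrays it was 0.61 (range 0.018 to 1.81). GstD5, GstD2, GstD10 and the second pair of GstD3 were among the least repeatable, with median differences of 1.81 (and 1.34 for its other pair), 0.92, 1.22 and 1.43, and GstE1, GstE13, GstE12 and the first pair of GstD4 among the most, with 0.018, 0.079, 0.089 and 0.072.

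**Figure D4:**
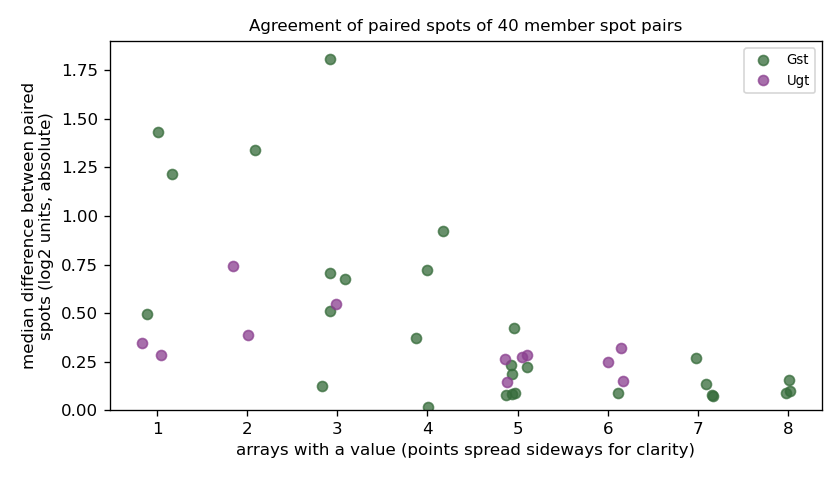
Median absolute difference between paired spots, in log2 units, against the number of arrays with a value, for the 40 pairs of Gst and Ugt spots. Pairs measured on 5 or more arrays lie between 0.072 and 0.42, and pairs measured on fewer arrays reach 1.81.

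The difference of the ratio between day 14 and day 10 could be tested for 8 members, and none passed (limma adjusted p from 0.997 upwards, and 0% of the 5187 genes and features tested on both days passed). No member had an unadjusted p under 0.05, against 2.18% of everything tested (0.906% lower and 1.27% higher at day 14). Of these 8, 5 had means below 0 on both days, GstE12, GstD1, GstD4, GstE13 and GstT3, none had means above 0 on both, and GstE2, GstT4 and Ugt37E1 had means of opposite sign. For GstD1 and GstD4 the day 10 means also drew on a clone without a day 14 value, so their days did not rest on the same spots. Without turning, 1 of the 8, GstE2, was below 0 on both days, 2, GstE12 and GstT4, were above 0 on both, and 5 had means of opposite sign. The matching shares over all genes and features tested on both days were not computed, so these counts are not read as a trait of the members. The difference of day 14 minus day 10 was 0.022 ± 0.19 for GstE12, with an interval from -0.40 to 0.44. For Ugt37E1 it was 0.90 ± 0.50 (interval -0.25 to 2.05), for GstE2 0.20 ± 0.22 and for GstT4 -0.20 ± 0.16 (SE from limma). The 95% intervals of the single days lay within 1 log2 unit of 0 on either side for 10 of the 11 members tested at day 14, all but GstO1, and for 24 of the 26 tested at day 10, all but GstD8 and Ugt37E1. The share of such intervals over all genes and features was not computed either, so these counts say nothing particular about the members.

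Genes that supply or regulate these enzymes were read from lists drawn up with earlier results of these data known, and none passed the test. Of the list for glutathione supply and related redox enzymes, 4 were tested at day 14, Gclm, Trxr1, Trxr2 and Gtpx, of which only Gclm belongs to glutathione synthesis. All 4 were below 0 with a median of -0.18, but without turning 1 of 4 was below 0 and the median was 0.092. At day 10, 5 were tested and 3 were below 0 with a median of -0.018, or 1 below 0 with a median of 0.064 without turning. Gclm, a subunit of the enzyme that limits glutathione synthesis, had -0.30 ± 0.14 at day 14 and 0.17 ± 0.14 at day 10 (SE, n = 4 each; limma adjusted p = 0.990 and 0.910), and without turning both means were above 0, at 0.24 and 0.064. Gtpx, a gene of the glutathione peroxidase family, had -0.20 at day 14, or 0.17 without turning. Of 7 regulators of the stress and xenobiotic response tested at day 10, 4 were below 0 with a median of -0.0245, or 3 with a median of 0.20 without turning. The lowest was the nuclear receptor gene Hr96, which regulates xenobiotic response in flies, at -0.59 ± 0.24 (SE, n = 3; limma unadjusted p = 0.0481, adjusted p = 0.904), or 0.40 without turning. The gene ss stood above 0 on every day 10 array, with a mean of 0.14, or -0.029 without turning. Keap1 and maf-S, binding partners of cnc, had -0.12 and 0.16 at day 10. The list held cnc too, but cnc was not among its 7 genes found on the array by symbol. At day 14, 4 regulators were tested and 3 were below 0 with a median of -0.094, or 3 with a median of -0.11 without turning. The lowest was crc, the fly ATF4, at -0.56 ± 0.28 (SE, n = 4), or 0.19 without turning, and its day 10 mean was -0.033, or 0.77 without turning. UGP, which makes UDP-glucose, the sugar donor of the Ugt enzymes, had -0.20 at day 14 and -0.24 at day 10, or 0.12 and 0.32 without turning. Of the other detoxification genes 6 were tested at day 14 and 11 at day 10, with medians of 0.047 and 0.0005. Among them the epoxide hydrolase gene Jheh2 stood at -0.53 ± 0.18 at day 14 (SE, n = 3; limma unadjusted p = 0.0166, adjusted p = 0.990) and at 0.23 without turning. Of the glutathione-linked enzymes with other symbols, 2 were tested at day 14 and 4 at day 10, and the glutaredoxin gene Grx1 had -0.22 at day 14 and -0.19 at day 10, or -0.13 and 0.089 without turning.

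Head RNA mixes neurons, photoreceptors, glia, fat body, muscle and antennal cells, and in such bulk samples fewer cells of a type and less RNA per cell cannot be told apart. As the values are ratios, the markers show only which genes gave usable spots: 5 of 6 photoreceptor markers on each day 14 array and 4 to 6 on the day 10 arrays, but 0 to 2 and 2 of the 2 neuronal markers present. Detoxification enzymes are strongly made in fat body. The 6 tested genes of the fat body list had a median of -0.053 at day 14 (4 below 0) and -0.079 at day 10 (3 below 0), or 0.15 and 0.17 without turning. The list held yolk protein genes, Yp2 at day 14 and Yp1, Yp2 and Yp3 at day 10, which do not mark fat body well in male flies. Besides these and Lsp2, Fbp2 and FASN1 were tested at day 10, at -0.25 and 0.12, or 0.30 and 0.41 without turning. At day 14, besides Yp2, FASN1 stood at -0.34, Lsp2 at -0.32, bmm at -0.10, Fbp2 at -0.0038 and Lsd-2 at 0.12. Without turning these stood at 0.054, 0.39, 0.16, 0.0705 and 0.15. The medians of this list per array lay between -0.24 and 0.094 at day 14 and between -0.43 and 0.088 at day 10. The day 10 values of the listed genes lay between -0.96 ± 0.29 for the storage protein gene Lsp2 (SE, n = 3; limma adjusted p = 0.834), or -0.019 without turning, and 0.43 ± 0.39 for the yolk protein gene Yp2 (SE, n = 3), or 0.77 without turning. Glial markers had medians of -0.23 at day 14 (2 genes) and -0.16 at day 10 (5 genes), and photoreceptor markers of -0.33 and 0.068 (5 genes each). Without turning, the glial medians were 0.017 at day 14 and -0.011 at day 10, and the photoreceptor medians were 0.31 on both days. Antennal markers had -0.098 (3 genes) and -0.20 (4 genes). Muscle markers had -0.17 (2 genes) and 0.033 (3 genes), haemocyte markers -0.037 (2 genes) and -0.035 (4 genes), and neuronal markers -0.35 (1 gene) and 0.030 (2 genes). Without turning, antennal markers had 0.13 and 0.30, muscle markers 0.18 and 0.018, haemocyte markers -0.0026 and -0.11, and neuronal markers 0.35 and 0.34. The part of these shifts in the values of the transferase genes was not tested.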

How the data were processed

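The 8 arrays were deposited as log2 ratios between their channels. Per the series' deposited design text, the authors quantified the scans with GenePix software, normalized the ratios in Acuity and dropped weak, saturated or irregular spots. The sources used here do not give the numerator dye. Swapped arrays were turned, and the median of each of 48 equal runs of consecutive features was subtracted (the array median for runs under 20 values). This departs from the deposited scaling because of drift along the table. Of 27648 features, 15116 had 1 symbol, 102 several and 12430 none; 14894 matched RefSeq by gene identifier. For each gene, its features with 1 symbol were averaged; the rest were tested singly and not named. The tool was limma 3.58.1 (R 4.3.3), with day means estimated jointly from all 8 arrays for whatever had at least 3 values of 4, at a Benjamini-Hochberg threshold of 0.05. The fit was tested on simulated data.

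Members, lists and tests were chosen with earlier results of these data known. Arrays were given singly for the leading members with 1 sign on every measured array (up to 3 per family, day and direction by smallest p), the leading day differences, and GstD1, GstE1, GstZ1, GstO1 and Ugt36D1; other members and list genes named were chosen after their values were seen. Same-numbered replicates of the days were compared through their deviations from the day means over 2217 genes and features, with Pearson correlations of -0.0045, 0.31, 0.25 and 0.07 for numbers 1 to 4, so the numbers were not taken to pair the arrays. Alternatives changed centring, turning, filters, feature summary, fit, weights and the arrays kept. The number of arrays limits the precision. Signal over background was not analysed here.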

Additional observations from a re-analysis of the deposited data

How the results depend on the processing

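No member passed under any of the 22 alternatives on either day, or in the day difference where it could be fitted. Over all genes and features at day 10, a dye term gave 1 call, eater, named after its value was seen, and a block for replicate number gave 156, none a member; the block gave none at day 14, and not every array correlated best with its own number. With the deposited values not centred, the day 10 medians were -0.34 for Gst and -0.23 for Ugt. Without turning, the day 10 Ugt median was -0.38 and the gap 0.31, and on Cy5 arrays alone the gap was 0.071; the cause was not tested. Leaving out single arrays kept the Gst median below 0, between -0.19 and -0.051 at day 14 and between -0.14 and -0.02 at day 10.

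Of 16 means of named members, 9 changed sign without turning: at day 14 GstE12 stood at 0.17, GstD1 at 0.019, GstT4 at 0.004, GstE2 at -0.053 and GstO1 at 0.009, and at day 10 GstE12 stood at 0.14, GstE13 at 0.19, GstZ1 at 0.13 and Ugt36D1 at -0.38. Not centred, Ugt37E1 stood at -0.097 at day 14, and GstT4 at -0.21 and Ugt36D1 at -0.23 at day 10. With arrays centred on their medians, Ugt37E1 stood at -0.020 at day 14 and GstZ1 at 0.038 at day 10. With runs of 24 features also centred, GstE2 stood at -0.0055 and Ugt37E1 at -0.073 at day 14, and GstT4 at -0.0021 at day 10. The centring of such short runs can pull values towards 0 by construction. At day 14 a dye term gave -0.15 for Ugt37E1 and 0.11 for GstO1, and array weights gave -0.024 for Ugt37E1. The replicate block gave -0.10 for Ugt37E1 and 0.53 for GstO1. For GstO1 the block had as many terms as the gene had values. Its 0.53 lay above each measured day 14 array (-0.37, 0.27 and -0.13) and drew on the day 10 values of -2.38 and 0.37. Cy5 arrays alone gave -0.040 for GstE2 at day 14, and 0.091 for GstE13, 0.064 for GstZ1 and -0.041 for Ugt36D1 at day 10. Cy3 arrays alone gave -0.016 for Ugt37E1 at day 14 and 0.014 for GstE2 at day 10. Without single arrays, the day 14 means ran from -0.021 to 0.068 for GstE2, -0.0495 to 0.072 for Ugt37E1 and -0.25 to 0.0695 for GstO1. The day 10 means ran from -0.15 to 0.091 for GstE13, -0.38 to 0.014 for GstE2, -0.31 to 0.11 for GstZ1 and -0.041 to 0.60 for Ugt36D1. The GstE12 mean stayed below 0 throughout this, between -0.39 and -0.23 at day 14 and between -0.39 and -0.21 at day 10.

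The number of genes and features with an unadjusted p under 0.05, 226 at day 14 and 618 at day 10, moved to between 82 and 398 at day 14 and between 527 and 1296 at day 10 without single arrays (148, 398, 82 and 103 at day 14 without day 14 replicates 1 to 4, and 1296 at day 10 without day 10 replicate 4). Over the other alternatives it lay between 34 of 3863 tested (Cy5 arrays alone) and 1162 of 6142 (array weights) at day 14, with 35 of 6142 not centred. At day 10 it lay between 373 of 6644 (values on all 4 arrays) and 1891 of 11312 (without turning). Where the totals tested differ, these counts are not comparable as they stand.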
